A study of Bos taurus with 18 samples.

Results

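The genes described here are 10 amino acid transporter genes of the bovine endometrium: SLC1A1, SLC1A4, SLC1A5, SLC3A2, SLC7A1, SLC7A5, SLC7A8, SLC38A2, SLC38A7 and SLC6A14. They were taken as every row of the deposited gene count table whose gene symbol was one of these names, which gave 11 rows of 38001. SLC7A5 stood on 2 of these rows, and 1 of the 2 had no count in any library. The other 10 rows, 1 per gene, were among the 19638 genes with enough counts to be tested.

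Endometrial cells had been brushed from the uterine horn next to the corpus luteum in 6 Holstein cows (Bos taurus), and their polyadenylated RNA was sequenced. Each cow was sampled on day 4 and on day 7 of an untreated control cycle, and again on day 7 of a later cycle in which a progestogen had been injected on day 4. Ovsynch, a hormone programme that times ovulation, preceded both cycles in every cow, and day 0 was the day of estrus. Cows A, B and C (the 17-OHPC/P4 arm) were injected with a depot that combined 17α-hydroxyprogesterone caproate (17-OHPC), a synthetic progestin ester, at 100 mg and progesterone (P4) at 10 mg. Cows D, E and F (the P4 arm) were injected with P4 alone at 100 mg. The 18 libraries thus formed 6 groups of 3 cows: day 4 control, day 7 control and day 7 treated in each arm. The treated cycle was the second cycle in all 6 cows and no cycle with a vehicle injection is among the samples used here, so treatment and cycle order cannot be told apart. The arms held different cows and different amounts of hormone, and the cows' age is not given in the sources used here.

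Amino acids cross cell membranes mainly through carriers, most of which belong to the solute carrier (SLC) families. Some carriers use the sodium gradient to concentrate amino acids in the cell, others exchange one amino acid for another, and a few sit in the lysosome and return amino acids from digested protein to the cytosol. In ruminants, endometrial carriers pass amino acids into the uterine fluid that feeds the embryo before it attaches. Arginine, leucine and glutamine from this fluid are known to act on the growth of the ruminant conceptus, in part through the mTORC1 kinase complex. The early luteal phase sampled here is the time when ovarian progesterone rises after ovulation.

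Total counts ranged from 29347255 to 40733544 per library. Levels are given as CPM, counts scaled to library size and TMM factor, and were not compared between genes because CPM is not corrected for gene length. Low counts were mostly even numbers (79.1% of the counts from 1 to 5, against 50.8% of those above 1000), so the number of independent fragments behind a low count may be smaller than the count. All 10 epithelial marker genes examined were detected in every library, with a summed level of 2566 to 5687 CPM. The 3 libraries of cow C stood apart from the others by their red blood cell markers, with a summed level of 359 to 4173 CPM against at most 4.15 CPM in any other library. Summed stromal markers (10 of 10 present) were at 7608 and 5425 CPM in cow C's day 4 and control day 7 libraries, and at 3605 CPM in its treated library, close to the 3545 CPM of cow D on control day 7, the highest of the other cows. In whole brushings, fewer cells of a type and less RNA per cell cannot be told apart.

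From day 4 to day 7 of the control cycle, SLC1A1 and SLC38A7 rose over all 6 cows, and no other transporter of the 10 passed the test. SLC1A1, the carrier that brings glutamate, aspartate and cysteine into epithelial cells, was 8.37-fold higher on day 7. SLC38A7, a lysosomal carrier that exports glutamine and asparagine to the cytosol, was 2.55-fold higher. SLC1A4, SLC1A5 and SLC7A1, carriers of neutral or cationic amino acids, had lower means on day 7 that did not pass. The plot of levels by cow shows these patterns for the 9 genes detected in all libraries.

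**Figure D1:**
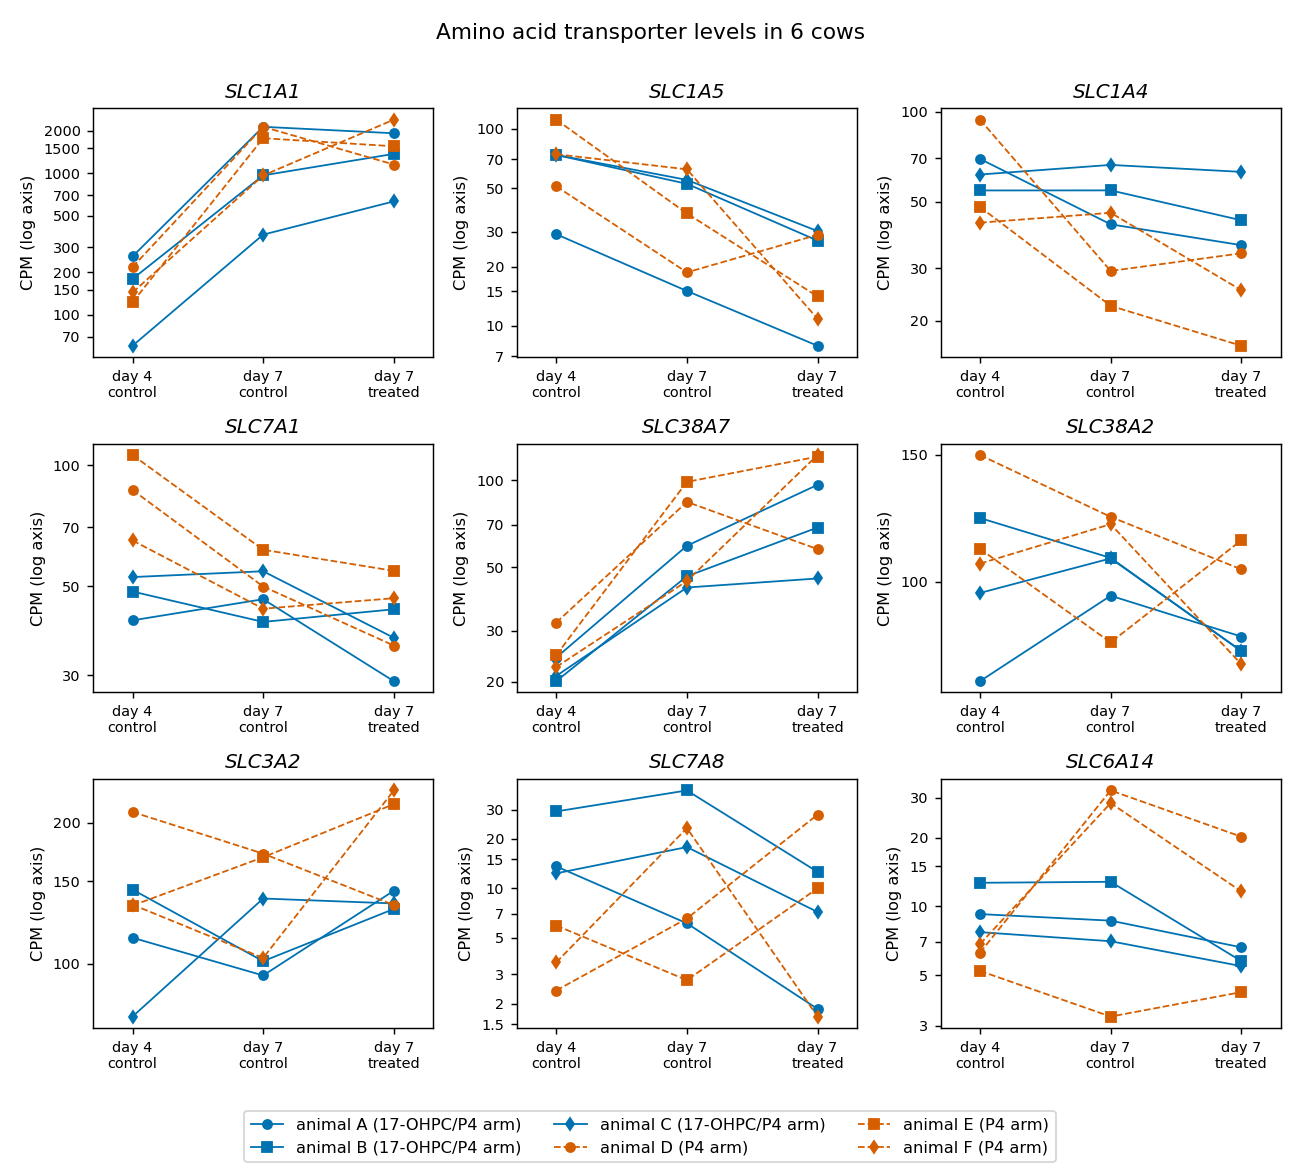
CPM (log axis) of 9 amino acid transporter genes in each of 6 cows on day 4 and day 7 of the control cycle and on day 7 of the treated cycle; each line is 1 cow, solid blue for the 17-OHPC/P4 arm and dashed orange for the P4 arm. SLC1A1 and SLC38A7 were higher on both day 7 samples than on day 4 in all 6 cows. From day 4 to control day 7, SLC7A8, SLC6A14, SLC1A4, SLC38A2, SLC3A2 and SLC7A1 were higher in some cows and lower in others.

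SLC1A1 stood at 258, 179 and 60.2 CPM in cows A, B and C on day 4, and at 2126, 964 and 368 CPM in the same cows on day 7. In cows D, E and F it stood at 217, 122 and 143 CPM on day 4 and at 2125, 1766 and 963 CPM on day 7. The lowest day 7 library, that of cow C, was above the highest day 4 library, that of cow A, so the groups of 6 did not overlap. Cow C was the lowest of the 6 cows on both days, and its paired change lay within the range of the 6 cows, 2.43 to 3.85 on the log2 scale. Over all cows the log2 fold change was 3.07 ± 0.47 (SE, n = 6 cows, adjusted p = 0.00221, edgeR quasi-likelihood test), higher in 6 of 6 cows. This fit, used throughout unless stated, held no term for the cow, though the same cows gave both days. With the cow as a block the log2 fold change was 3.02 (adjusted p = 0.000236, edgeR). Among the 20 alternative settings tried, the adjusted p ranged from 5.25e-10 to 0.0115.

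Within the P4 arm SLC1A1 rose by 3.33 ± 0.67 on the log2 scale (adjusted p = 0.0119). Leaving out cow D's day 7 control library (adjusted p = 0.0514), cow E's day 4 library (0.065) or cow F's day 4 library (0.0585) ended that call. In the 17-OHPC/P4 arm the log2 difference was 2.80 ± 0.66 and did not pass (adjusted p = 0.151), but with the cow as a block it passed at 2.71 (adjusted p = 0.0194), where 0.535% of all genes were called higher, and with DESeq2 (0.00142). The change itself differed between the arms by -0.53 ± 0.87 (95% interval -2.39 to 1.33, adjusted p = 0.91). In the RefSeq table SLC1A1 overlaps SPATA6L, and since the strand setting of the counting is not given in the sources used here, reads of the shared stretch cannot be told apart. SPATA6L was counted at 1.52 to 12.7 CPM in the 18 libraries.

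SLC38A7 was between 20.1 and 32.1 CPM in the 6 day 4 libraries, with a median of 23.4 CPM. On day 7 of the control cycle it lay between 42.5 and 98.8 CPM, with a median of 52.9 CPM. The 2 ranges did not overlap: cow D was the highest on day 4 and cow E on day 7. The log2 fold change was 1.35 ± 0.24 (SE, n = 6 cows, adjusted p = 0.00437), again higher in 6 of 6 cows, and it passed in all 20 alternatives, with adjusted p from 8.72e-06 to 0.0166. In the P4 arm it was 1.52 ± 0.34 (adjusted p = 0.0172). Leaving out cow D's day 7 control library (adjusted p = 0.0724), cow E's day 4 or day 7 control library (0.0784 and 0.0645) or cow F's day 4 library (0.0766) ended this call. In the 17-OHPC/P4 arm the difference was 1.18 ± 0.34 (adjusted p = 0.225, and 0.144 with the block), with 3 of 3 cows higher.

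Of the 10 transporters, 2 were called higher and 0 lower over all cows, where 6.27% of all genes tested were called higher and 4.28% lower. The median log2 fold change of the 10 was -0.048, against -0.049 over all genes. Groups of 6 libraries that did not overlap, higher on day 7, were found for 2 of the 10 transporters and for 2.32% of all genes. By arm, the P4 arm had 2 transporters called higher and 0 lower, where 4.64% of all genes were called higher and 4% lower. The 17-OHPC/P4 arm had 0 called by edgeR and 1 by DESeq2 (SLC1A1), where edgeR called 0.0407% of all genes. At an unadjusted p under 0.05 there were 2 of the 10 transporters and 1890 of 19638 genes in that arm. DESeq2 called 319 of 19524 genes higher and 90 lower there.

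SLC1A5, the sodium-dependent exchanger that takes up glutamine and other small neutral amino acids, was at 29.2, 73.7 and 73.8 CPM on day 4 in cows A, B and C and at 51.1, 111 and 74.3 CPM in cows D, E and F. On day 7 of the control cycle the same cows had 15.0 (from A), 52.6, 55.1, 18.7, 37.2 and 62.3 CPM. The level was lower on day 7 in 6 of 6 cows, yet the spread between cows was wide and the 2 ranges overlapped. The log2 difference of -0.76 ± 0.43 did not pass (adjusted p = 0.283).

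SLC1A4, a related exchanger of alanine, serine, cysteine and threonine, went from a median of 58.2 CPM (42.6 to 94.2) on day 4 to 44.0 CPM (22.4 to 66.5) on day 7. It was lower on day 7 in 3 of 6 cows, by most in cow D, from 94.2 to 29.4 CPM. The log2 difference was -0.55 ± 0.25 (adjusted p = 0.165). SLC7A1, the main carrier of arginine and lysine in most tissues, had a median of 58.8 CPM (41.1 to 106) on day 4 and 48.1 CPM (40.7 to 61.5) on day 7, with a log2 difference of -0.37 ± 0.16 (adjusted p = 0.143).

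In the RefSeq table SLC7A1 overlaps an unnamed locus, whose reads cannot be told apart from its own without a known strand setting. The SLC7A1 levels by arm are given here. Cows D, E and F had 86.7, 106 and 64.9 CPM on day 4 and 49.9, 61.5 and 43.9 CPM on day 7. Cows A, B and C had 41.1, 48.4 and 52.6 CPM on day 4 and 46.4, 40.7 and 54.4 CPM on day 7. On day 4 the 3 cows of the P4 arm were above the 3 of the other arm, which was so for 15.5% of all genes, and the arms were not tested against each other on that day. The 2 sets overlapped on day 7. In the P4 arm the log2 difference of -0.73 ± 0.22 did not pass (adjusted p = 0.0538), whereas it passed with the cow as a block at -0.72 (adjusted p = 0.0205), a fit that called 7.33% of all genes lower, and with DESeq2 (0.038). DESeq2 called 1502 of 19524 genes lower there. In the 17-OHPC/P4 arm the SLC7A1 log2 difference was -0.0068 ± 0.22. The difference of these changes, 0.72 ± 0.31, did not pass (adjusted p = 0.617, edgeR). None of the 10 transporters passed in this difference between the arms, where 0% of all genes did by edgeR and 1514 genes had an unadjusted p under 0.05.

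**Figure D2:**
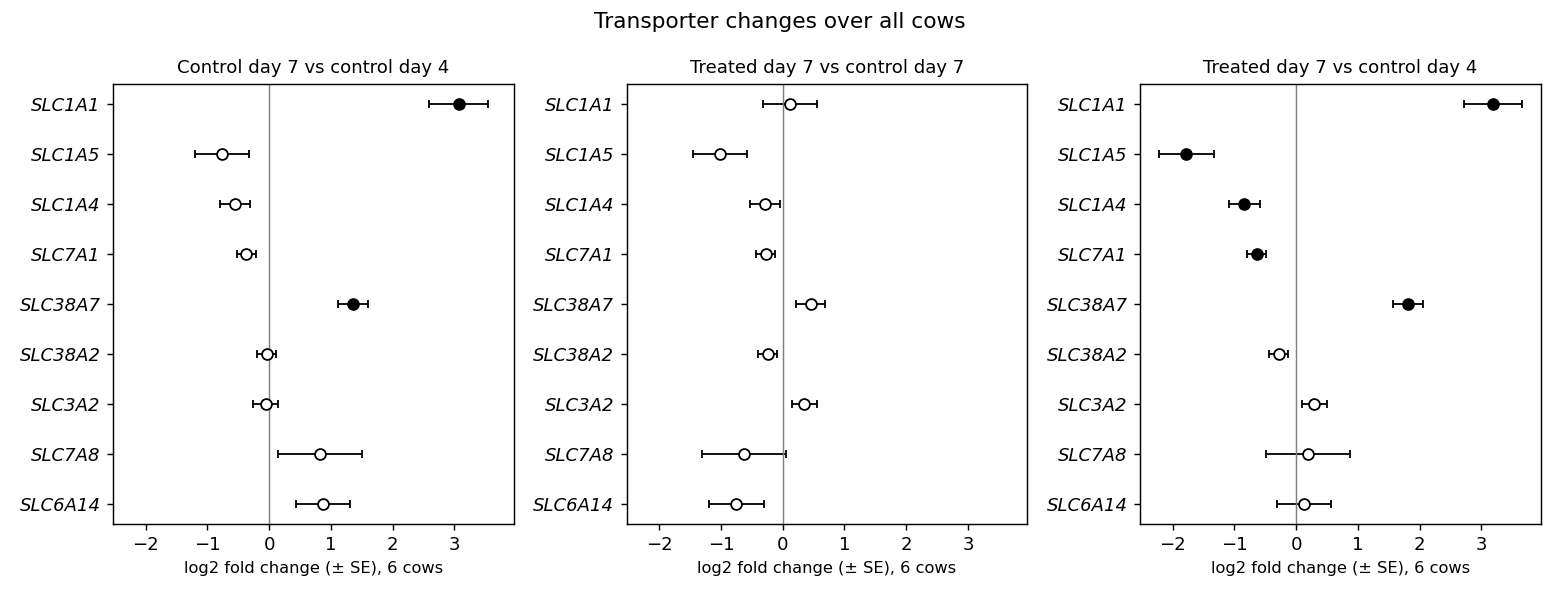
Log2 fold changes (points) with their SE (bars) of 9 transporters over 6 cows, for control day 7 against control day 4, treated day 7 against control day 7, and treated day 7 against control day 4; filled points passed at an adjusted p under 0.05 (edgeR). Filled points are SLC1A1 and SLC38A7 on the left, none in the middle, and SLC1A1, SLC38A7, SLC1A5, SLC1A4 and SLC7A1 on the right; the 3 panels share groups of libraries.

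Treated and control day 7 were then compared, which asked how the endometrium differed 3 days after the injection. The same cows gave both samples, and the values below come from the fit without the cow as a block, which changed no call here (for SLC1A5, -0.98 with an adjusted p of 0.707 with the block). No transporter passed the test, in either arm or over all cows. SLC1A5 had the largest difference relative to its error, with a treated mean of 19.9 ± 10.0 CPM (SD, n = 6) against 40.2 ± 19.8 CPM on control day 7. SLC1A1 had closely placed means, 1500.3 ± 609.7 CPM treated and 1385 ± 726 CPM control.

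Treated SLC1A5 levels were 7.93, 27.1 and 30.3 CPM in cows A, B and C and 29.0, 14.1 and 10.9 CPM in cows D, E and F. Each was below the same cow's control day 7 value except in cow D, where it was above (29.0 against 18.7 CPM). In the 17-OHPC/P4 arm the 3 paired log2 differences had a mean of -0.91 ± 0.048 (SD), while in the P4 arm they had a mean of -1.09 ± 1.60. The log2 difference over all cows was -1.02 ± 0.44 (adjusted p = 0.896, edgeR; lower in 5 of 6 cows). It stayed above an adjusted p of 0.05 in all 20 alternatives, which gave 0.637 to 1.

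SLC38A7 was at 96.5, 68.6 and 45.6 CPM in treated cows A, B and C and at 57.7, 121 and 122 CPM in treated cows D, E and F. Against control day 7 it was higher in 5 of 6 cows and lower in cow D, with a log2 difference of 0.46 ± 0.24 (95% interval -0.049 to 0.96, adjusted p = 0.896). SLC1A1 reached 1914, 1368 and 631 CPM in treated cows A, B and C and 1150, 1549 and 2389 CPM in treated cows D, E and F. It was higher than on control day 7 in 3 cows and lower in 3, and the log2 difference of 0.12 ± 0.43 had a 95% interval of -0.81 to 1.05 (adjusted p = 0.968).

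SLC3A2, the heavy chain that several SLC7 carriers need to reach the cell surface, was at 131 to 234 CPM in treated libraries and at 94.5 to 172 CPM on control day 7. Its log2 difference was 0.35 ± 0.20 (95% interval -0.084 to 0.78, adjusted p = 0.896), and 4 of 6 cows were higher. SLC38A2, a sodium-coupled glutamine and alanine carrier that cells induce when amino acids are scarce, was at 76.8 to 114 CPM in treated libraries and at 82.3 to 123 CPM on control day 7. It was lower in 5 of 6 cows, with a log2 difference of -0.25 ± 0.15 (95% interval -0.57 to 0.079). Neither gene passed in any of the 13 comparisons made.

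Across all genes, edgeR called 0 of 19638 (0%) in this contrast over all cows, and likewise 0 (0%) within each arm. At an unadjusted p under 0.05 there were 850 genes over all cows, 371 within the 17-OHPC/P4 arm and 596 within the other. In the same order DESeq2 called 2, 1 and 2 genes, and limma voom called 0 in each. Of the 10 transporters, 0 were called by edgeR, DESeq2 or limma voom, and 1, SLC1A5, had an unadjusted p under 0.05 over all cows. The day 7 contrast had few calls anywhere in the transcriptome.

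**Figure D3:**
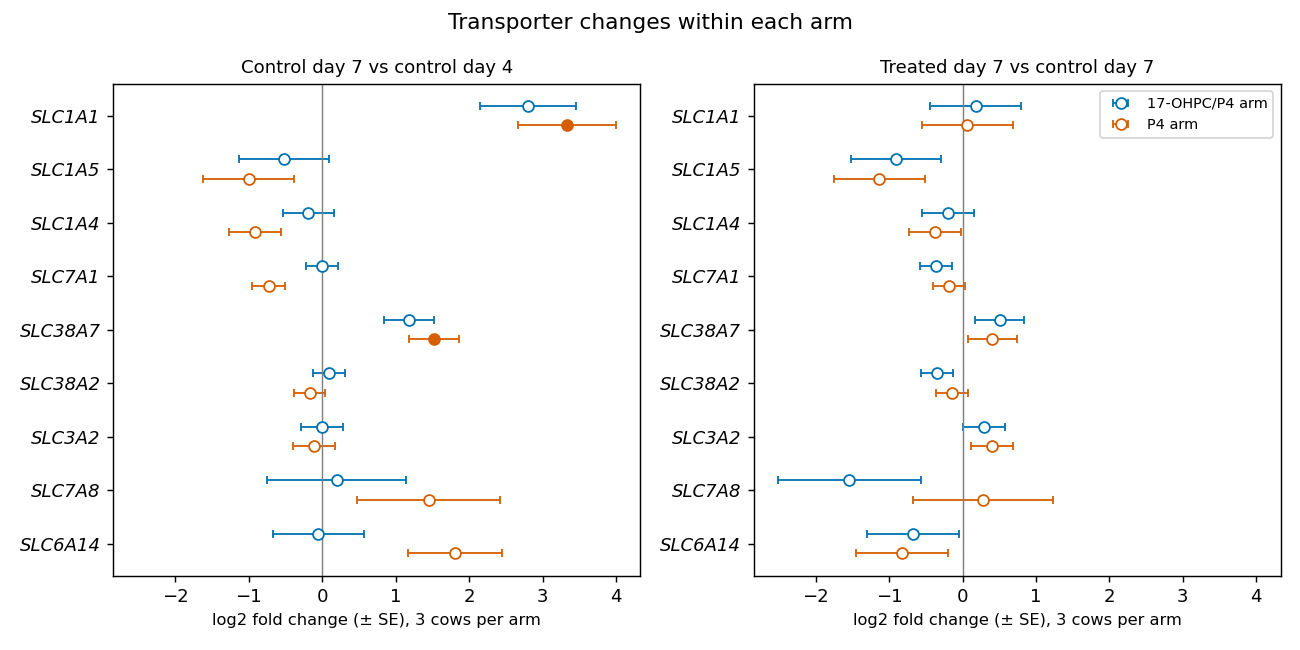
Log2 fold changes (points) with their SE (bars) of 9 transporters within the 17-OHPC/P4 arm (blue, 3 cows) and the P4 arm (orange, 3 cows), for control day 7 against control day 4 (left) and treated against control day 7 (right); filled points passed at an adjusted p under 0.05 (edgeR). Only SLC1A1 and SLC38A7 in the P4 arm on the left are filled, and the error bars of the arms overlap for all 9 genes on the right.

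The arms received different compounds in different amounts, so their treated levels are set side by side here. None of the 10 transporters passed between the treated arms on day 7, where 0.0102% of all genes did, nor in the difference of the treatment responses, where 0% did. SLC1A4 was nearest, at 35.8, 43.4 and 63.0 CPM in treated cows A, B and C and at 33.6, 16.5 and 25.3 CPM in treated cows D, E and F. The 3 cows of the 17-OHPC/P4 arm were above the 3 of the P4 arm, as they were for 6.33% of all genes. The log2 difference was 0.91 ± 0.35 (95% interval 0.16 to 1.67, adjusted p = 0.448, edgeR).

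On control day 7, SLC1A4 was at 42.1, 54.6 and 66.5 CPM in the 17-OHPC/P4 arm and at 29.4, 22.4 and 46.0 CPM in the P4 arm. These levels overlapped, and the log2 difference of 0.74 ± 0.35 did not pass (95% interval -0.013 to 1.49, adjusted p = 0.475). The treatment responses of SLC1A4 in the arms differed by 0.18 ± 0.50 (95% interval -0.88 to 1.23, adjusted p = 1). Other 95% intervals of the difference in response were -1.75 to 1.97 for SLC1A1, -1.63 to 2.07 for SLC1A5, -0.90 to 1.11 for SLC38A7 and -0.85 to 0.49 for SLC7A1. They were -1.73 to 2.03 for SLC6A14, -4.73 to 1.08 for SLC7A8, -0.98 to 0.75 for SLC3A2 and -0.86 to 0.44 for SLC38A2. The intervals of SLC1A1, SLC1A4, SLC1A5, SLC38A7, SLC6A14 and SLC7A8 reach beyond a doubling in 1 or both directions. The data thus do not show that the arms responded alike. On control day 7, 0.00509% of all genes and 0 of the 10 transporters were called between the arms. At an unadjusted p under 0.05, 2 of the 10 passed between the treated arms (SLC1A4 and SLC7A5), 0 in the difference of responses and 1 on control day 7 (SLC7A5), where 1792, 247 and 2088 of 19638 genes did, in that order. The counts of SLC7A5 were too low for a change to be read. DESeq2 and limma voom called 0 of the 10 in each of these 3 comparisons. Among all genes DESeq2 called 114 higher and 101 lower between the treated arms, 0 in the difference of responses, and 131 higher and 234 lower on control day 7, where limma voom called 2, 0 and 1.

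Treated day 7 was also set against day 4 of the control cycle, a comparison of all 6 cows that was added with earlier results known and that shares its day 4 libraries with the first comparison. SLC1A1 and SLC38A7 were higher and SLC1A5, SLC1A4 and SLC7A1 were lower. SLC1A5 was 3.44-fold lower, SLC1A4 1.79-fold lower and SLC7A1 1.56-fold lower. Thus 2 of the 10 transporters were called higher, where 11.1% of all genes were, and 3 lower, where 8.74% were. The median over the 10 was -0.027 on the log2 scale, against -0.10 over all genes. This contrast spans treatment, day and cycle together. Marker genes of the epithelium and of other cell types moved over the same libraries. The summed level of epithelial markers had a median of 4799 CPM on day 4 (3755 to 5687) and 3546 CPM when treated (2566 to 4984). The summed level of stromal markers had a median of 1671 CPM on day 4 (411 to 7608) and 590 CPM when treated (375 to 3605), that of T and NK cell markers 101 CPM (67.6 to 186) and 60.0 CPM (48.6 to 71.99), and that of macrophage markers 198 CPM (65.7 to 408) and 131 CPM (31.2 to 175). Every marker of the stromal, T and NK cell and macrophage lists had counts in all 18 libraries. Fold changes were below 0 for 10 of 10 stromal, 10 of 10 T and NK cell and 6 of 8 macrophage markers, of which 1, 3 and 0 passed. The part of these cells in the transporter differences was not tested.

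For SLC1A5 the log2 fold change was -1.78 ± 0.45 (SE, adjusted p = 0.0137), with 6 of 6 cows lower and an adjusted p of 0.000601 to 0.0435 in the 20 alternatives. The fall was widest in cow E, from 111 to 14.1 CPM, and narrowest in cow D, from 51.1 to 29.0 CPM. Even so the groups overlapped, because cow A had 29.2 CPM on day 4 and cow C 30.3 CPM when treated. For comparison, the same gene's values were -0.76 ± 0.43 from day 4 to control day 7 and -1.02 ± 0.44 from control day 7 to treated day 7, neither of which passed.

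SLC7A1 fell by 0.64 ± 0.16 (SE, adjusted p = 0.0121) and was lower in 6 of 6 cows. Its treated levels were 29.0, 43.8 and 37.2 CPM in cows A, B and C and 35.5, 54.5 and 46.6 CPM in cows D, E and F. Without the treated library of cow F the adjusted p was 0.05. SLC1A4 fell by 0.84 ± 0.25 (adjusted p = 0.0295) and was lower in 5 of 6 cows. Cow C was the exception, with 61.7 CPM on day 4 and 63.0 CPM when treated. That call was lost without any 1 of 6 libraries: the treated libraries of cow A (adjusted p = 0.0806), cow B (0.0602), cow E (0.0698) or cow F (0.0682), or the day 4 libraries of cow C (0.0526) or cow D (0.0758).

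SLC1A1 was 9.12-fold higher (log2 3.19 ± 0.47, adjusted p = 0.00113) and SLC38A7 3.50-fold higher (log2 1.81 ± 0.24, adjusted p = 0.000709) in treated day 7 than in day 4 libraries, in 6 of 6 cows. Both passed in all 20 alternatives, at adjusted p up to 0.00614 and 0.00412. Their treated and day 4 libraries did not overlap, which held, in the higher direction, for 4.17% of all genes. The other 3 called transporters had overlapping groups.

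Within the P4 arm, this comparison called 2 transporters higher and 2 lower (4.32% and 3.16% of all genes). SLC1A1 was higher by 3.40 ± 0.67 (adjusted p = 0.0141) and SLC38A7 by 1.92 ± 0.34 (adjusted p = 0.0106). SLC7A1 was at -0.91 ± 0.22 (adjusted p = 0.0269) and SLC1A4 at -1.29 ± 0.36 (adjusted p = 0.0411). SLC1A5, at -2.13 ± 0.64, did not pass (adjusted p = 0.0555) except with the cow as a block (-2.06, adjusted p = 0.021), where 5.99% of all genes were called lower, with DESeq2 (0.0074) and when only the 2 groups compared were fitted (0.0299). DESeq2 called 1269 of 19524 genes lower there, and the fit on those 2 groups 794 of 18105. In that last fit SLC7A1 (0.0712) and SLC1A4 (0.0761) did not pass.

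In the P4 arm neither SLC1A1 nor SLC38A7 passed without the day 4 library of cow E (adjusted p = 0.0789 and 0.0641) or F (0.0678 and 0.0575), or the treated library of cow F (0.0602 and 0.0527). SLC7A1 no longer passed without 1 of 5 libraries: the day 4 library of cow D (adjusted p = 0.0586), E (0.126) or F (0.0509), or the treated library of cow D (0.113) or F (0.125). SLC1A4 no longer passed without 1 of 5 either: the day 4 library of cow D (adjusted p = 0.16), E (0.0874) or F (0.0685), or the treated library of cow E (0.102) or F (0.135). With cow C of the other arm left out entirely, the adjusted p of SLC1A4 was 0.0524.

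In the 17-OHPC/P4 arm, 1 transporter was called higher and 0 lower (0.657% and 0.0255% of all genes). SLC38A7 was higher by 1.69 ± 0.34 (adjusted p = 0.0446). It did not pass without the treated library of cow A (adjusted p = 0.22) or B (0.0781), the day 4 library of cow B (0.173) or C (0.202), or all 3 libraries of cow C (0.113), nor with limma voom (0.0539) or when only the 2 groups compared were fitted (0.247). SLC1A1, at 2.98 ± 0.66, did not pass (adjusted p = 0.0522), but did with the cow as a block (3.08, adjusted p = 0.00547), where 4.24% of all genes were called higher. It also passed when cow A's day 4 library (0.026) or cow C's treated library (0.038) was left out, and with the stricter filter (0.0361), limma voom (0.0437) and DESeq2 (0.00019). Those fits called 923, 228, 280, 129 and 1041 genes higher, in that order. SLC1A5, SLC1A4 and SLC7A1 were at -1.43 ± 0.62, -0.39 ± 0.35 and -0.37 ± 0.22, and none of them passed.

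SLC7A8, SLC6A14 and SLC7A5 varied between cows in other ways. SLC7A8, an exchanger of large neutral amino acids that pairs with SLC3A2, had the widest spread of the 10 between cows of a group, a pooled SD of 1.36 on the log2 scale. Of all genes tested, 91.1% had a smaller SD. SLC38A2 had the narrowest, 0.27, with 20.3% of genes below it, and the median over all genes was 0.51.

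In cows A, B and C, SLC7A8 was at 13.6, 29.2 and 12.3 CPM on day 4, at 6.13, 39.1 and 17.8 CPM on control day 7, and at 1.86, 12.6 and 7.17 CPM when treated. In cows D, E and F it was at 2.40, 5.94 and 3.55 CPM on day 4, at 6.55, 2.77 and 23.2 CPM on control day 7, and at 27.9, 9.99 and 1.67 CPM when treated. All 3 cows of the 17-OHPC/P4 arm were lower when treated than on control day 7, whereas in the P4 arm cows D and E were higher and cow F lower. The log2 difference was -1.54 ± 0.97 in the former arm and 0.28 ± 0.95 in the latter, and their difference of -1.83 ± 1.36 did not pass (95% interval -4.73 to 1.08, adjusted p = 1). SLC7A8 overlaps 2 unnamed loci in the RefSeq table, whose reads cannot be told apart from its own without a known strand setting.

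Markers of ciliated cells, a minority cell type of the endometrial surface, varied over the same libraries. The summed level of 9 ciliated-cell marker rows was 64 to 1160 CPM, and 8 of the 9 were detected in every library, FOXJ1 among them, while CAPS was at 0 in all. The sum was high in the libraries of cow B (1160, 548 and 390 CPM), the control day 7 library of cow F (505 CPM), the day 4 library of cow C (483 CPM) and the treated library of cow D (378 CPM). It was low in the treated libraries of cows A (64 CPM) and F (100 CPM) and in the control day 7 library of cow E (69 CPM). SLC7A8 had its 4 highest levels in 4 of the first 6 and its 2 lowest in 2 of the last 3. No cut for a high or low sum was set beforehand, and other libraries matched less well. Cow D's day 4 library had a sum of 164 CPM with SLC7A8 at 2.40 CPM, while cow C's control day 7 library had 186 CPM with 17.8 CPM. The part of ciliated cells in the SLC7A8 levels was not tested.

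**Figure D4:**
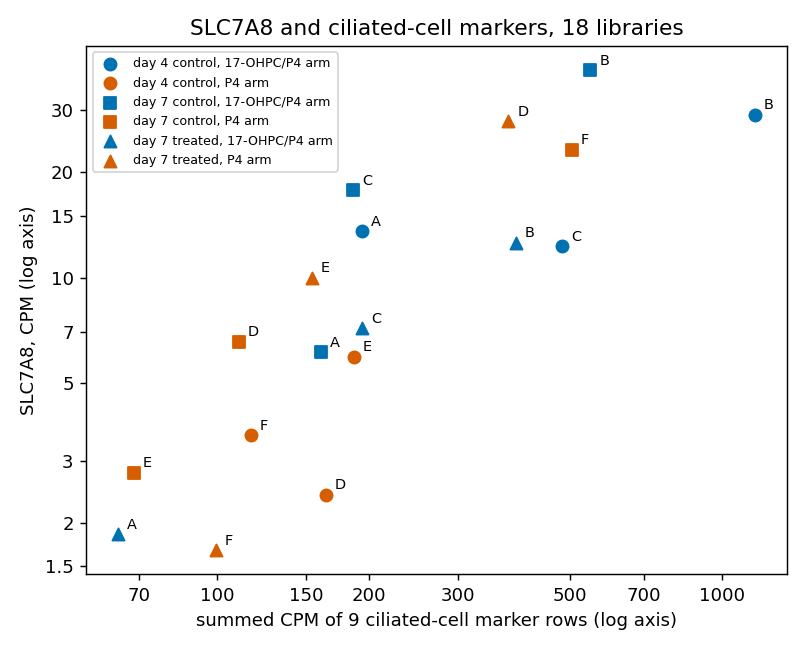
SLC7A8 level (CPM, log axis) against the summed CPM of 9 ciliated-cell marker rows (log axis) in 18 libraries, labelled by cow, with the shape giving the sample and the colour the arm. Libraries of cow B, the treated library of cow D and the control day 7 library of cow F lie at the upper right, and the treated libraries of cows A and F at the lower left.

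SLC6A14, which concentrates neutral and cationic amino acids in epithelial cells, was at 5.22 to 12.7 CPM on day 4. On control day 7 it was at 8.67, 12.8 and 7.04 CPM in cows A, B and C and at 32.3, 3.29 and 28.4 CPM in cows D, E and F. Cows D and F stood well above their day 4 values of 6.27 and 6.84 CPM, while cow E, at 5.22 CPM on day 4, went lower. The P4-arm log2 difference from day 4 to control day 7 was 1.80 ± 0.64 and did not pass (adjusted p = 0.0901). It passed without the control day 7 library of cow E (2.32, adjusted p = 0.0224), the P4-arm cow that went lower, and with DESeq2 (0.0236). Those fits called 477 of 19638 and 1899 of 19524 genes higher, in that order. When treated, SLC6A14 was at 6.62, 5.76 and 5.48 CPM in cows A, B and C and at 20.2, 4.21 and 11.6 CPM in cows D, E and F, lower than on control day 7 in 5 of 6 cows (log2 difference -0.75 ± 0.44, adjusted p = 0.896).

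SLC7A5, the light chain that pairs with SLC3A2 to import leucine and other large neutral amino acids, was almost undetected. Its counted row (ENSBTAG00000006731) held 0 to 27 counts, at most 0.71 CPM, and 3 counts correspond to 0.0658 to 0.107 CPM depending on the library. The 3 libraries of cow C had 27, 24 and 26 counts and those of cow B 1, 12 and 9. In the other 4 cows no library had more than 3 counts, and 7 of them had 0. The second row with the symbol (ENSBTAG00000058767) had 0 counts in all 18 libraries. Reads that match both copies could have been dropped or split in counting, so the level is uncertain and no fold change is given. No comparison called it.

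A wider list of 46 other amino acid transporters of the plasma membrane and lysosome was examined in the same way. Of these, 45 had a row, 33 were tested and 12 had too few counts, 10 of them below 1 CPM in every library. From day 4 to day 7 of the control cycle, 5 of the 33 rose and 0 fell, where 6.27% of all genes rose and 4.28% fell. SLC6A20, a carrier of proline and other imino acids, and SLC6A9, a glycine carrier, rose most. The median log2 fold change of the 33 was 0.19, against -0.049 over all genes.

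SLC6A20 went from a median of 18.1 CPM (8.76 to 62.1) on day 4 to 78.5 CPM (16.7 to 294) on control day 7, a log2 fold change of 1.91 ± 0.55 (adjusted p = 0.0394). SLC6A9 went from 26.2 CPM (10.0 to 76.5) to 93.8 CPM (54.7 to 148), by 1.51 ± 0.44 (adjusted p = 0.0422). SLC7A7, which pairs with SLC3A2 to export cationic amino acids, went from 30.6 CPM (18.1 to 35.0) to 74.2 CPM (29.3 to 126), by 1.38 ± 0.33 (adjusted p = 0.0172). SLC7A4, a member of the cationic carrier family, went from 50.0 CPM (35.2 to 60.1) to 97.9 CPM (75.1 to 149), by 1.11 ± 0.24 (adjusted p = 0.0104). Of these 4 genes, SLC7A4 alone had control day 7 levels that did not overlap those of day 4, as was so, in the higher direction, for 2.32% of all genes. The fifth was SLC43A1, a carrier of branched-chain amino acids, at 0.73 ± 0.22 (adjusted p = 0.0477).

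The count of 5 was sensitive to single libraries. It was 1 without the control day 7 library of cow D and 2 without that of cow E or the day 4 library of cow C. It was 3 without the control day 7 library of cow A or B, the day 4 library of D, E or F, or all libraries of cow C, and 8 without the control day 7 library of cow F. With the cow as a block, 8 rose and 1 fell, where 1835 and 1437 of 19638 genes did. Calls over all genes moved as well. Without the control day 7 library of cow D 725 genes were higher, and without that of cow F 1652, against 1232. Between treated and control day 7, 0 of the 33 passed over all cows, with edgeR, where 0 of all 19638 genes did. Between treated day 7 and day 4, 8 of the 33 rose and 3 fell, where 11.1% and 8.74% of all genes did. SLC6A20 rose by most (3.06 ± 0.58, adjusted p = 0.00354), and SLC1A3, a glutamate carrier of the same family as SLC1A1, was lower (-1.80 ± 0.53, adjusted p = 0.0285) at 0.058 to 2.80 CPM. That count of 11 was 5 without the treated library of cow A, 6 without the day 4 library of cow F, and 7 without the day 4 library of cow C, the treated library of cow F, or all libraries of cow C. All genes called higher were 1359 without the treated library of cow A, against 2188.

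**Figure D5:**
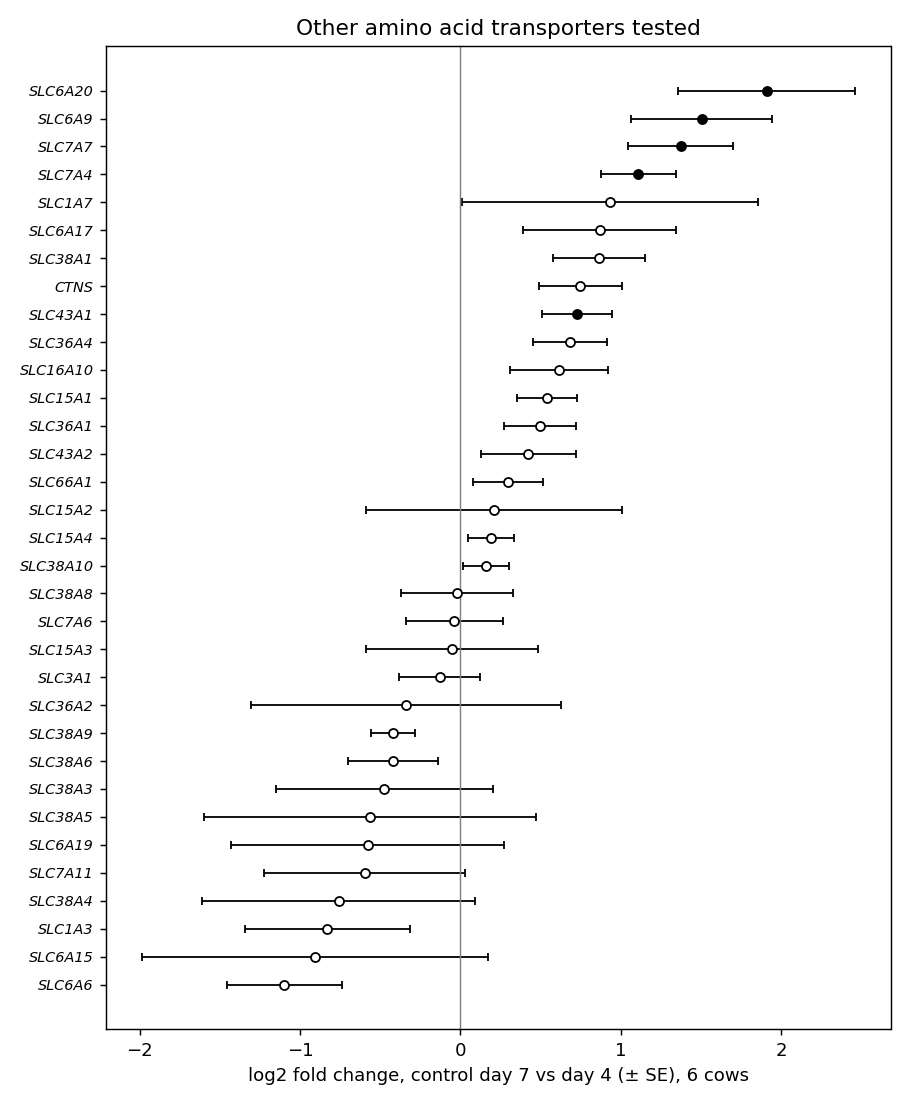
Log2 fold change (points) with SE (bars), control day 7 against control day 4 over 6 cows, of the 33 other amino acid transporters that were tested, in order of the change; filled points passed at an adjusted p under 0.05 (edgeR). The 5 filled points all lie above 0, from 0.73 for SLC43A1 to 1.91 for SLC6A20.

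Genes that use or sense the transported amino acids were counted next, from day 4 to day 7 of the control cycle. The counts of these 5 lists are read against the 6.27% of all genes that rose, the 4.28% that fell and the median log2 fold change of -0.049 over all genes. Leaving out 1 control library gave 640 to 1652 of all genes higher and 295 to 1565 lower, against 1232 and 841. With the cow as a block 1835 were higher and 1437 lower. Among 22 enzymes of glutamate, glutamine, arginine and leucine use, 5 rose and 0 fell. BCAT1, which transfers the amino group of leucine, went from a median of 143 CPM (21.5 to 373) to 720 CPM (419 to 1406), by 2.34 ± 0.62 on the log2 scale (adjusted p = 0.0277). GLUD1, the mitochondrial glutamate dehydrogenase, went from 133 CPM (109 to 444) to 585 CPM (344 to 898), by 1.60 ± 0.36 (adjusted p = 0.0135). ARG2, the mitochondrial arginase, rose by 1.33 ± 0.32 (adjusted p = 0.0186) and ASL, which makes arginine, by 1.15 ± 0.33 (adjusted p = 0.0378). The median of the 22 was 0.40. The count was 2 without the control day 7 library of cow A or D, the day 4 library of cow E or F, or all libraries of cow C, and 3 without the day 4 library of cow C.

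Of 28 tested genes of amino acid sensing by mTORC1, 5 rose and 0 fell, with a median of 0.15. RHEB, the small GTPase that activates mTORC1, went from 46.9 CPM (34.1 to 93.9) to 148 CPM (93.8 to 239), by 1.68 ± 0.28 (adjusted p = 0.00325). FLCN and FNIP2, partners that act on the Rag GTPases at the lysosome, rose by 1.26 ± 0.23 (adjusted p = 0.00521) and 1.04 ± 0.26 (adjusted p = 0.0208). SESN1, a negative regulator of the pathway, rose by 0.63 ± 0.18 (adjusted p = 0.0382), which did not pass with the cow as a block (adjusted p = 0.055). The count was 2 without the control day 7 library of cow A or the day 4 library of cow E, 3 without the control day 7 library of cow E, and 8 without that of cow F.

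In a list of 23 genes of the ATF4 response, which cells mount when amino acids run short, 2 rose and 1 fell, with a median of 0.19. NUPR1, a stress-induced chromatin protein, went from 6.17 CPM (3.35 to 46.4) to 91.0 CPM (46.6 to 199), by 3.46 ± 0.50 (adjusted p = 0.00176). PHGDH, the first enzyme of serine synthesis, went from 58.0 CPM (16.6 to 425) to 798 CPM (299.9 to 1100), by 2.45 ± 0.71 (adjusted p = 0.0393). TRIB3, a pseudokinase induced by ATF4, fell by 2.65 ± 0.63 (adjusted p = 0.017), from 5.58 CPM (1.21 to 30.9) to 1.25 CPM (0.45 to 1.72). The count of 3 was 6 with the cow as a block or without the day 4 library of cow A, and 5 without the control day 7 library of cow C or F.

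Of 7 mitochondrial amino acid carriers with a row, 1 rose and 0 fell: SLC25A15, the ornithine carrier, by 1.30 ± 0.38 (adjusted p = 0.0429). That call was lost on leaving out any 1 of 8 of the 12 control libraries, and the count was 3 with the cow as a block. Among 20 cytosolic aminoacyl-tRNA synthetases, which load amino acids onto tRNA, 0 rose and 2 fell, with a median of -0.18. WARS1, for tryptophan, fell by 0.60 ± 0.13 (adjusted p = 0.0105) and VARS1, for valine, by 0.48 ± 0.14 (adjusted p = 0.0431). The count of 2 was 1 without 9 of the 12 control libraries, each left out in turn. Between treated and control day 7, edgeR called 0 genes of each of these 5 lists over all cows, where it called 0 of all 19638 genes. Summed epithelial markers had a median of 4799 CPM on day 4 and 3835 CPM on control day 7. T and NK cell markers had medians of 101 and 61.6 CPM, in that order, and neutrophil markers of 30.9 and 148 CPM. The part of these cells in the list counts and in the transporter changes was not tested.

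The genes whose profile over the 18 libraries was most like that of each called transporter were named by the root mean square difference of centred log2 CPM, as a description. For SLC1A1, whose own spread was 1.64, they were SLC16A11 (difference 0.30), SLC16A13 (0.43), EFNA1 (0.43), ADCY9 (0.44) and COBL (0.46). SLC16A11 and SLC16A13, members of the monocarboxylate carrier family, are neighbours in the RefSeq table. For SLC38A7, whose own spread was 0.86, they included FLCN (0.22), ATP6V0C (0.26), CDCP1 (0.28) and SEC61A2 (0.28). ATP6V0C is a subunit of the proton pump that acidifies the lysosome.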

How the data were processed

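Per the submitters' processing notes, cutadapt, FastQC, STAR, featureCounts and DESeq2 were used. Neither their versions nor the genome build, annotation release, strand setting or handling of read pairs were stated in the labels, and no coordinates are printed. The deposited table holds the authors' raw counts per gene, not normalized, for 38001 genes in 18 libraries. Genes passing edgeR's filterByExpr (19638) were fitted with edgeR 4.0.16 in R 4.3.3 (TMM, robust quasi-likelihood F test, 1 mean per group, all libraries). Benjamini-Hochberg adjustment ran over all 19638 genes, and an adjusted p under 0.05 was called. Standard errors and 95% intervals come from this fit. Alternatives used DESeq2 1.42.0, limma voom (limma 3.58.1), other filters and scalings, the cow as a block, and leaving out each library or cow C. The fit was also run on simulated counts drawn without a cow effect, so that run does not bear on the pairing of samples by cow.

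The transporters and gene lists were chosen with earlier results of these data known, and the comparison of treated day 7 with day 4 was added later. Named genes were all 10 transporters, up to 4 called genes per list with the largest change, and the 5 genes most like each called transporter, of which 1 is not reported here; SLC43A1 was named beside them to complete a count of 5 after its value was seen. The cow's letter in the labels marks the same animal in all 3 samples. Same-cow deviations from group means correlated at -0.071 to 0.72 (median 0.37, 18 pairs) and different-cow deviations at -0.63 to 0.28. No 2 libraries were identical, and replicate counts of a group differed with a chi-square of 63.3 to 424 per gene, far above sampling noise. Precision rests on 3 cows per group.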

Additional observations from a re-analysis of the deposited data

How the results depend on the processing

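The 27 single-transporter changes examined were those with an unadjusted p under 0.05 in the edgeR fit without the block, SLC7A5 left out. They kept their direction in 443 of 443 alternative fits. These fits used the same counts and the changes were picked by their p, so a kept direction is not independent support. The number of transporters called was within 1.5 times the value reported in every alternative for day 7 against day 4 over all cows (2 to 3), for treated against control day 7 (0 throughout) and for the arm differences (0 throughout). For day 7 against day 4 in the 17-OHPC/P4 arm, the paired fit with the cow as a replicate block called 1 and DESeq2 called 1, against 0. Of all genes, those 2 fits called 105 and 319 higher, against 8. In the P4 arm DESeq2 called 4, and leaving out 1 library gave 0 to 3 against 2. DESeq2 called 1899 of 19524 genes higher and 1502 lower there. Leaving out 1 library gave 157 to 1198 of all genes higher, against 912. For treated day 7 against day 4 in the 17-OHPC/P4 arm, the replicate block, the stricter filter and DESeq2 each called 2, against 1. All genes called higher by these were 832, 280 and 1041, against 129. The fit on the groups compared alone and the fit without cow C each called 0, with 0 and 5 of all genes higher. Leaving out 1 library gave 0 to 2 transporters, with 3 to 923 of all genes higher. In the P4 arm leaving out 1 library gave 0 to 3, against 4, and over all cows 3 to 5, against 5. All genes called higher were then 44 to 881, against 848, in the P4 arm. Over all cows they were 1359 to 2663, against 2188. The block changed no call of the 10 transporters other than those printed with the results, and it could not be fitted between the arms, whose cows differ. The cause of these shifts was not tested. Depth limits SLC7A5, whose counts were too low for a change to be read, and 3 cows per group limit the comparisons within an arm.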

Other observations

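The lists around the transporters were also counted between day 4 of the control cycle and day 7 of the treated cycle, a comparison that spans treatment, day and cycle. Over all 6 cows, 11.1% of all genes were called higher and 8.74% lower here (19.9% in either direction), and the median log2 fold change over all genes was -0.10. Leaving out 1 library gave 1359 to 2663 of all genes higher and 767 to 1789 lower, against 2188 and 1717. With the cow as a block 2832 were higher and 2526 lower. Of 22 enzymes of glutamate, glutamine, arginine and leucine use, 5 rose and 2 fell. BCAT1 rose by most (2.50 ± 0.62, adjusted p = 0.0137), followed by GLUD1 (1.77 ± 0.36, adjusted p = 0.00524). GCLC, which makes the first intermediate of glutathione from glutamate and cysteine, was at a median of 345 CPM (40.4 to 488) on day 4 and 722 CPM (427 to 911) when treated, a rise of 1.44 ± 0.43 on the log2 scale (adjusted p = 0.0308, edgeR). ASS1, which acts with ASL in arginine synthesis, fell by 1.98 ± 0.58 (adjusted p = 0.0287), from 45.5 CPM (10.7 to 60.2) to 8.61 CPM (1.79 to 28.1). The count of 7 was 4 without the treated library of cow A or F or the day 4 library of cow C or F, and 11 with the cow as a block.

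Of 28 genes of amino acid sensing by mTORC1, 7 rose and 0 fell in the same comparison, among them RHEB (1.78 ± 0.28, adjusted p = 0.00153), FLCN (1.51 ± 0.23, adjusted p = 0.00135) and LAMTOR4, a subunit of the Ragulator scaffold (1.08 ± 0.29, adjusted p = 0.0197). That count was 3 without the treated library of cow A, 4 without the day 4 library of cow C and 12 without the treated library of cow E. Of 23 ATF4 response genes, 5 rose and 2 fell. The largest change was that of STC2, at -4.36 ± 1.24 (adjusted p = 0.0246). NUPR1 and PHGDH rose by most, at 3.70 ± 0.51 (adjusted p = 0.000796) and 2.88 ± 0.72 (adjusted p = 0.0138), while TRIB3 fell by 3.09 ± 0.64 (adjusted p = 0.00559). The count of 7 was 3 without the treated library of cow A and 4 without the day 4 library of cow C, E or F. Of 20 aminoacyl-tRNA synthetases 0 rose and 4 fell, KARS1, for lysine, by most (-0.62 ± 0.16, adjusted p = 0.0153), and 2 fell without the treated library of cow D or E. Of 7 mitochondrial carriers 2 rose, SLC25A29, for basic amino acids (1.60 ± 0.36, adjusted p = 0.00835) and SLC25A15 (1.27 ± 0.38, adjusted p = 0.032). That count was 1 without any 1 of 7 of the 12 libraries compared.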
